A study of Mus musculus with 12 samples.

Results

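Gene expression in the white fat of male Ahnak knockout mice was compared with that of wild-type mice when both were fed regular chow. The comparison takes the 6 arrays labelled as regular chow, out of 12 arrays in the series: 3 wild-type (WT) arrays and 3 Ahnak knockout (KO) arrays. All animals were 18 weeks old. The other 6 arrays, 3 WT and 3 KO, came from mice of the same age given a high fat diet (HFD) with 60% fat for 12 weeks, and no chow difference uses them. They enter the estimate of the spread, and so the errors and p-values, and they show how the genes ranked on chow look in other arrays. A feature entered if its row on the array names a single gene symbol; where a gene had several rows, the row with the highest mean over the 12 arrays stood for it, which gave 19937 genes. The labels give neither the strain, the fat depot, the hour of collection nor the part of Ahnak that was targeted. They number the arrays of a group without stating that each came from its own animal, so p-values measure the spread between these samples only.

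AHNAK is a very large scaffold protein, named desmoyokin where it was found in skin. It sits beneath the plasma membrane, where its carboxyl end binds annexin A2 and S100A10, and it has been tied to calcium channels and to signalling by the TGF-beta family. White adipose tissue stores triglyceride in adipocytes and also holds stromal, vascular, mesothelial and immune cells. Mice without Ahnak have been described as resistant to obesity on a fat-rich diet, and the chow arrays address the genotype without that diet.

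All values are log2 intensities, and a difference is the KO mean minus the WT mean on that scale, with the standard error of the limma fit. Across genes, the chow arrays correlated at r = 0.9925 to 0.9958 within WT, 0.9925 to 0.9947 within KO and 0.991 to 0.996 between the genotypes, over genes that are not independent of each other. The first principal component of the chow arrays held 37.9% of the variance and did not separate the genotypes, with WT arrays at -8.12, 14.5 and -19.1 and KO arrays at 19.4, -11.7 and 5.03. Adipocyte markers were bright on every chow array: Adipoq, which encodes adiponectin, read 13.13, 13.10 and 13.16 in WT and 13.15, 13.22 and 13.07 in KO. Mesothelial markers spread widely within both genotypes: the median of the 18 markers, each taken relative to its own mean in WT on chow, was 0.08, 0.48 and -0.56 in WT and -0.19, -0.49 and 0.39 in KO. In pieces of tissue, fewer cells of a type and less RNA per cell cannot be told apart.

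Ahnak itself was lower on each KO array. It read 9.94, 10.06 and 10.08 in WT and 9.31, 9.27 and 9.42 in KO, a difference of -0.69 ± 0.13. The groups were well apart, yet the adjusted p over all genes was 0.379, so the targeted gene missed the threshold of 0.05 on chow. On HFD, the difference was -0.52 with an adjusted p of 0.021. Since the labels do not say which part of the gene was deleted, a probe set may lie outside it, and its level does not show how much protein is left. The 10 measured genes on either side of Ahnak in RefSeq order had differences between -0.16 and 0.36, and 0 of these 20 had an unadjusted p under 0.05. Of 675 genes on chromosome 19, which carries Ahnak, 39 had such a p, a share of 5.78% against 5.60% of all genes. The 39 include Ahnak itself and Anxa1, which lies outside those 20 genes. Whether DNA around the targeted gene differs between the genotypes was not tested.

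Partners and relatives of AHNAK were mostly a little lower in KO, by small amounts. Of 18 measured members, 15 had a difference below 0, against 46.4% of all genes, and the median was -0.08 against 0.01 for all genes. Anxa1, a phospholipid-binding annexin, was the only member with an unadjusted p under 0.05; its difference was -0.28 ± 0.09, and it fell by 0.43 on HFD (adjusted p = 0.015). Vim, the intermediate filament vimentin, had a difference of -0.14.

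Across all genes, limma called 0 of 19937 (0%) between KO and WT on chow at an adjusted p under 0.05. The lowest adjusted p was 0.225, that of Pyroxd2. At an unadjusted p under 0.05 stood 1116 genes (5.60%), where 996.9 would be expected if no gene differed; 556 of them were higher in KO (2.79%) and 560 lower (2.81%). The arrays of the groups did not overlap for 2299 genes (11.5%), of which 1154 were higher (5.79%) and 1145 lower (5.74%). A difference above 2-fold was seen for 5 genes that were higher and 18 that were lower in KO. The genes named next are those with the smallest unadjusted p in each direction, and none of them passed the adjusted threshold, so their values are a ranking and not a set of called genes.

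Among the 15 genes that ranked first as higher in KO were enzymes of redox and carbohydrate metabolism and membrane receptors. Pyroxd2, an oxidoreductase-like protein of mitochondria, read 6.81, 6.83 and 6.68 in WT and 7.42, 7.24 and 7.37 in KO, a difference of 0.57 ± 0.08. Tkt, the transketolase of the non-oxidative pentose phosphate pathway, read 11.88, 11.92 and 11.85 in WT and 12.50, 12.57 and 12.27 in KO, a difference of 0.56 ± 0.09. For both genes the WT arrays lay close together, and the lowest KO array was clear of them. Ide, the insulin-degrading enzyme, read 9.93, 9.83 and 9.91 in WT and 10.47, 10.95 and 10.33 in KO, a difference of 0.69 ± 0.14. Pth1r, the receptor for parathyroid hormone, read 7.84, 7.73 and 7.93 in WT and 8.38, 9.21 and 8.53 in KO, a difference of 0.87 ± 0.18. KO replicate 2 was the highest array for both Ide and Pth1r. Elovl6, which lengthens long-chain saturated fatty acids, read 9.76, 9.76 and 9.33 in WT and 11.21, 11.16 and 10.19 in KO, and its difference of 1.24 ± 0.28 was the largest of these 15. Sorl1, a sorting receptor of the LDL receptor family, read 8.23, 7.94 and 7.48 in WT and 9.05, 9.27 and 8.41 in KO, a difference of 1.03 ± 0.24. For Elovl6 and Sorl1 replicate 3 was the lowest array of both genotypes, and the groups still did not overlap. The others were C8g (0.43), a chain of complement component C8, Plppr1 (0.47), Morn4 (0.78), Angptl1 (0.53), an angiopoietin-like secreted protein, Pecr, a peroxisomal enoyl-CoA reductase, Syne3, Irf2, Polr2j and Pnoc.

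Among the 15 genes that ranked first as lower in KO were RNA helicases, nuclear RNA and hormone- or fasting-responsive genes. Arrdc3, an alpha-arrestin that binds beta-adrenergic receptors, read 10.81, 10.53 and 11.19 in WT and 9.36, 9.43 and 10.09 in KO, a difference of -1.22 ± 0.21. Ddit4, also called REDD1, which restrains mTORC1, read 8.44, 8.76 and 9.20 in WT and 7.58, 7.06 and 7.94 in KO, a difference of -1.28 ± 0.24. Replicate 3 was the highest array of both genotypes for both genes. Ddx17, an RNA helicase, read 10.20, 10.23 and 10.35 in WT and 9.86, 9.69 and 9.85 in KO, a difference of -0.46 ± 0.07. Malat1, a long RNA retained in nuclear speckles, read 11.58, 11.50 and 11.98 in WT and 11.18, 11.03 and 10.96 in KO, a difference of -0.63 ± 0.12. Rab15, an endosomal small GTPase, read 6.85, 6.93 and 6.45 in WT and 5.95, 5.76 and 5.54 in KO, a difference of -0.99 ± 0.17. The 3 WT arrays were above the 3 KO arrays for each of these genes, as the plot of the 30 genes by array shows. The rest were Ahnak, Ogt (-0.43), which attaches N-acetylglucosamine to nuclear and cytosolic proteins, Prpf4b (-0.33), Inha, Cpeb2 (-0.90), Rhob (-0.52), Bcl2l10, Akap8, Ddx5 (-0.33) and Taf1d (-0.62).

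**Figure D1:**
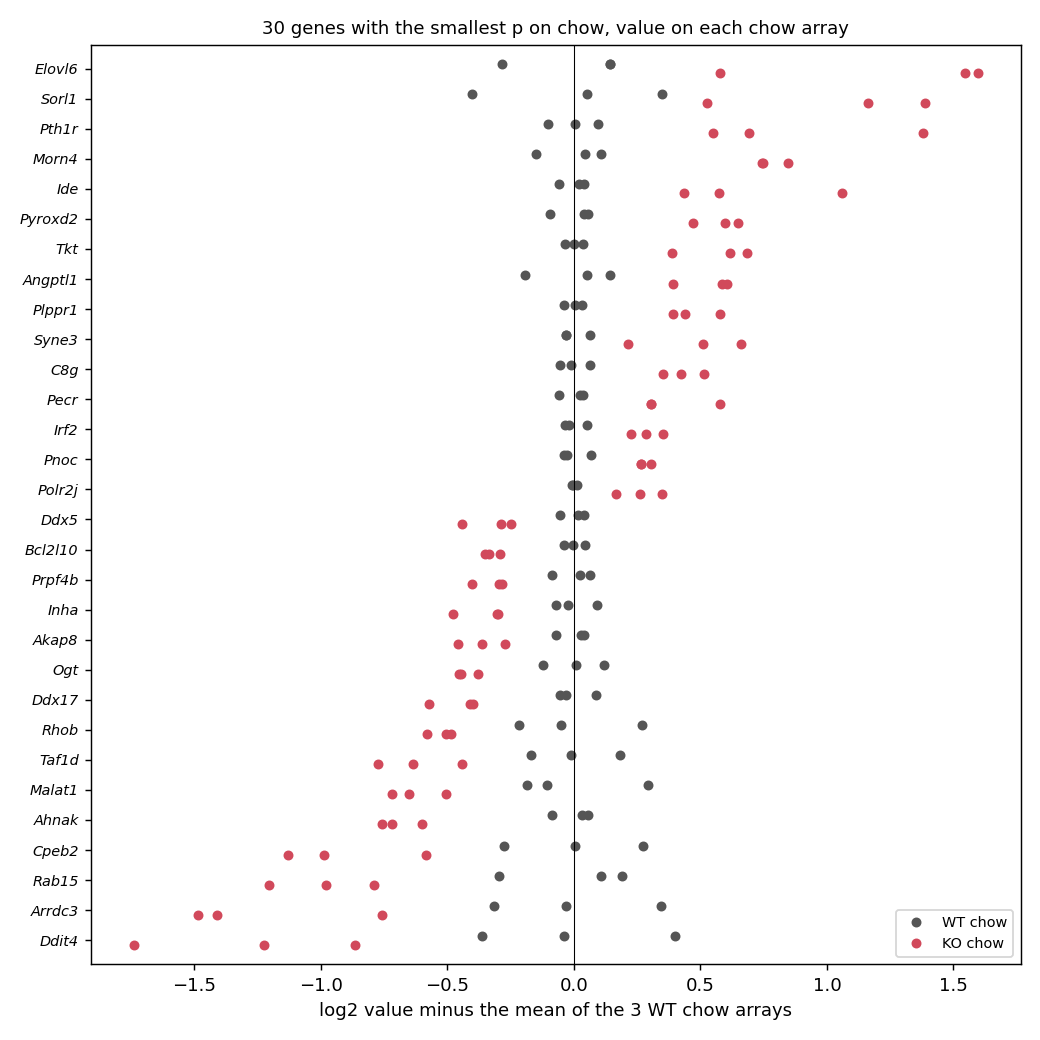
The log2 level of each of the 30 genes with the smallest unadjusted p on chow, 15 higher and 15 lower in KO, is drawn for each of the 6 chow arrays relative to the gene's WT mean. Elovl6 and Sorl1 lie farthest up and Ddit4 and Arrdc3 farthest down; none of the 30 genes passed an adjusted p of 0.05.

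By size, among genes with an unadjusted p under 0.05 and arrays that did not overlap, those farthest below WT included several of immune cells. Mmp12, a macrophage elastase, had a difference of -1.48 ± 0.47 on chow and fell by 4.28 on HFD (adjusted p = 0.0032). A pair of immunoglobulin kappa variable genes had differences of -2.08 and -1.40. For the first of them, WT replicate 3 read 9.13 while the other WT arrays read 5.18 and 5.54, and without that array, a choice made after seeing the data, the differences were -0.83 and -0.81. Such genes are also close copies of each other, so a probe set may read several of them. Gadd45g (-1.43), a growth arrest gene, Bcl6 (-1.21), a transcriptional repressor, C6 (-1.15), a terminal complement component, and Ppp1r3c (-1.12), a glycogen-targeting subunit of protein phosphatase 1, followed. On the other side, after Elovl6 and Sorl1, came Slc43a1 (0.97), a transporter of large neutral amino acids that rose by 1.55 on HFD (adjusted p = 0.0056). Dusp4 (0.94), a MAP kinase phosphatase, and Cox8b (0.91), a cytochrome c oxidase subunit of brown fat and muscle, followed. The list of 16 thermogenic genes that holds Cox8b had a median of 0.04, with 9 above 0 and 7 below, and Ucp1 at -0.02. Dusp4, Cox8b, Gadd45g, Bcl6 and C6 did not pass on HFD, with differences of -0.06, -0.33, 0.01, 0.01 and -0.70. Genes with a difference above 1 that missed those conditions were H2-Ea (1.87), an MHC class II chain, Sfrp4 (1.07) and Cish (1.03), whose groups overlapped; on the lower side they included Cxcl13 (-1.36) and Depp1 (-1.33).

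The HFD arrays share no sample with the chow arrays, although both comparisons use the same estimate of the spread. KO against WT on HFD called 2691 of 19937 genes (13.5%), with 1325 higher (6.65%) and 1366 lower (6.85%). That count rests on single arrays: leaving out KO HFD replicate 1 or 3 gave 904 or 1261 genes, and leaving out WT HFD replicate 1, 2 or 3 gave 3930, 1256 or 956. Of the 15 genes that ranked first as higher on chow, 6 rose on HFD, 2 fell and 7 did not pass. Of the 15 that ranked first as lower, 2 fell, 1 rose and 12 did not pass. The sign was the same on both diets for 14 of the 30, against 54.8% of all genes. Over all genes, the difference was above 0 for 54.3% and below 0 for 45.7% on HFD. The count of 11 called genes rests on the 12-array fit: with the 6 HFD arrays alone limma called 0 of the 30 and 4 genes in all, while leaving out WT HFD replicate 3 gave 4, KO HFD replicate 1 gave 6, KO HFD replicate 2 gave 7 and KO HFD replicate 3 gave 5.

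The genes that kept their direction and passed on HFD were Pyroxd2, Tkt, C8g, Ide, Pth1r, Morn4, Rab15 and Ahnak. Pyroxd2 rose by 0.61 (adjusted p = 0.0039), Pth1r by 0.88 (adjusted p = 0.011) and Tkt by 0.31 (adjusted p = 0.047). Morn4, a protein with MORN repeats, had a difference of 0.78 ± 0.16 on chow and rose by 2.04 on HFD (adjusted p = 0.00052). Angptl1, Sorl1 and Arrdc3 passed on HFD in the opposite direction: Sorl1 fell by 0.99 (adjusted p = 0.020), Angptl1 fell by 0.52 (adjusted p = 0.014) and Arrdc3 rose by 0.86 (adjusted p = 0.021). None of these 3 opposite calls was left with WT HFD replicate 3 omitted, with KO HFD replicate 1 or 3 omitted, or with the 6 HFD arrays alone. The test of the difference between diets, the interaction of genotype and diet, called none of the 30, and its lowest adjusted p was 0.0552, shared by 6 of them: Angptl1, Sorl1, Ddx17, Arrdc3, Malat1 and Prpf4b. In all, that test called 1 of 19937 genes (0.00502%) and gave an unadjusted p under 0.05 for 3496 (17.5%). Of the 1116 genes with an unadjusted p under 0.05 on chow, 655 (58.7%) had the same sign on HFD; 142 passed there in the same direction (12.7%) and 57 in the opposite one (5.11%), against 8.93% and 4.56% of all genes.

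**Figure D2:**
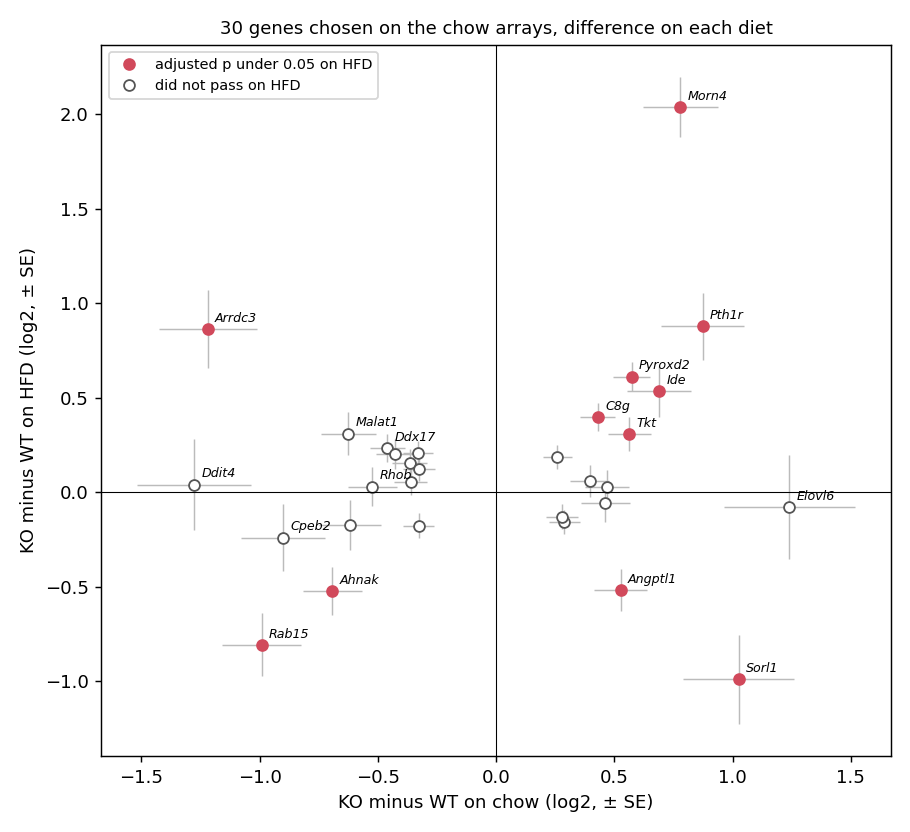
The horizontal axis gives the KO minus WT difference (log2) on chow and the vertical axis gives that on HFD. The points are the 30 genes ranked first on chow. Of these, 14 lie in the quadrants of equal sign and 16 in the others, among them Arrdc3, Sorl1 and Angptl1.

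**Figure D3:**
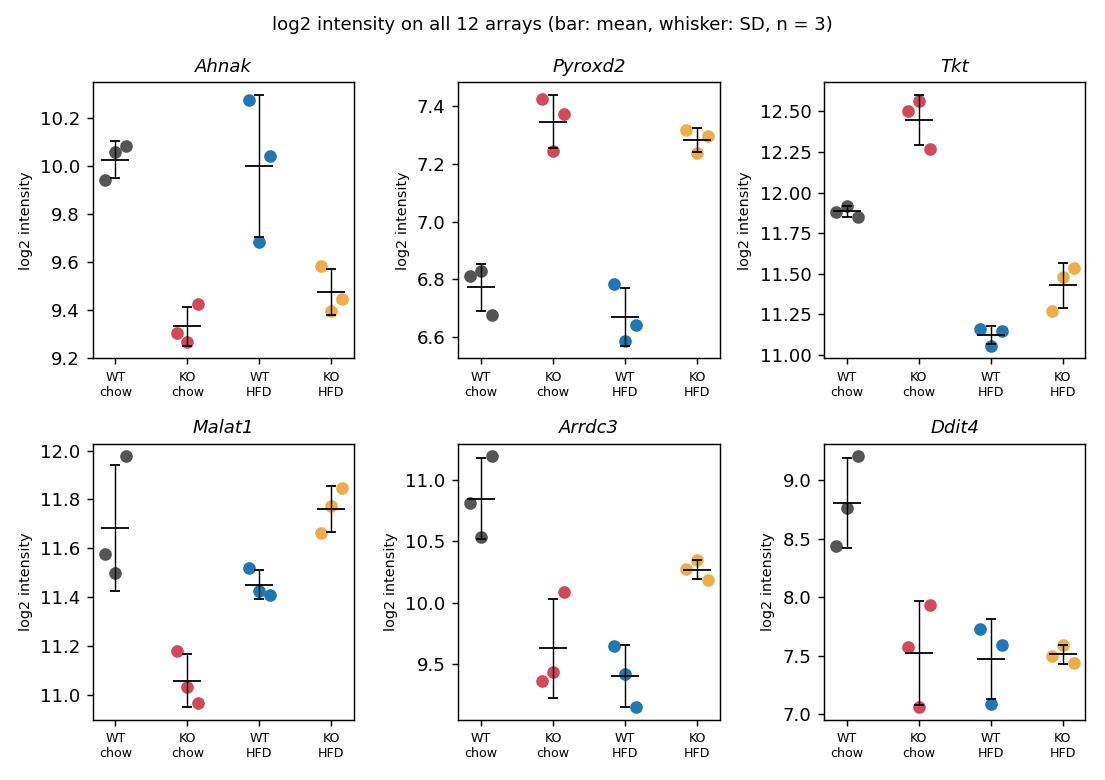
Log2 levels of Ahnak, Pyroxd2, Tkt, Malat1, Arrdc3 and Ddit4 are drawn for all 12 arrays, with the mean and SD of each group of 3. Ahnak, Pyroxd2 and Tkt keep the direction of the chow difference on HFD, and Arrdc3 turns.

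Genes were next grouped by role. The 42 lists, 29 of pathways and 13 of cell type markers, were chosen with earlier results of these data known, so the counts describe the lists and no p is attached to them. Since no gene passed the adjusted threshold on chow, 0 members of any list did. The background for each count is that of all genes: 2.79% higher and 2.81% lower at an unadjusted p under 0.05, and a median difference of 0.01. Chow arrays that did not overlap were seen for 5.79% of all genes as higher and 5.74% as lower. On HFD, 6.65% of all genes rose and 6.85% fell at an adjusted p under 0.05.

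Nuclear RNA and splicing genes lay lower in KO almost without exception. Of 39 measured members, which include SR proteins, their kinases, RNA helicases and speckle RNAs, 38 had a difference below 0, and the median was -0.20. The list also holds Golgb1 (-0.23) and Akap9 (-0.01), which are not genes of nuclear RNA or splicing. An unadjusted p under 0.05 was reached by 22 members on the lower side and 0 on the higher side. For 24 members the KO arrays all lay below the WT arrays, as they did for 5.74% of all genes. The median of the members relative to their WT means was -0.01, -0.04 and 0.03 on the WT arrays and -0.21, -0.19 and -0.22 on the KO arrays. The spread within each genotype was thus smaller than the gap between them. Besides Malat1, Ddx17, Ogt, Prpf4b and Ddx5, the members with the smallest p included Srsf2, an SR splicing factor, which read 10.86, 10.96 and 10.84 in WT and 10.53, 10.59 and 10.67 in KO. Gas5, a host of small nucleolar RNAs, was the single member above 0, at 0.51. On HFD, the same list had a median of 0.14, with 31 members above 0, of which 4 rose, where 6.65% of all genes rose.

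Genes driven by glucocorticoids, fasting or FoxO factors also lay lower in KO. These factors raise catabolic genes when insulin is low or stress hormone is high. Of 28 measured members, 22 had a difference below 0, 11 of them with an unadjusted p under 0.05, against 1 on the higher side. The median was -0.26, and per array it was -0.04, -0.09 and 0.14 in WT and -0.27, -0.32 and -0.17 in KO. Beside Ddit4, Arrdc3 and Bcl6 stood Errfi1 (-0.63 ± 0.15), an inhibitor of the EGF receptor, Tsc22d3 (-0.54), the glucocorticoid-induced leucine zipper, Pdk4 (-0.90), which shuts pyruvate dehydrogenase, and Nfil3 (-0.37), a repressor of the clock output, which fell by 0.42 on HFD as well (adjusted p = 0.016). Of the 6 members above 0, only Arrdc4, an alpha-arrestin, had an unadjusted p under 0.05, at 0.16. On HFD the list median was 0.11, and 6 members rose while Nfil3 alone fell, where 6.65% of all genes rose and 6.85% fell. Ddit4, Bcl6, Errfi1 and Tsc22d3 had HFD differences of 0.04, 0.01, 0.29 and 0.22, and Pdk4 had -0.34. Fkbp5, a chaperone that glucocorticoids induce, read 11.04, 10.82 and 11.47 in WT and 9.93, 10.36 and 10.98 in KO, so its groups overlapped.

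The promoters of 2 members are shown because glucocorticoid receptor binding to an inverted repeat is the classical route to such genes. The motif searched was GNACA and TGTNC with any 3 bases between them, where N is any base, on both strands, in windows from 250 bases before to 50 bases after a start in RefSeq on GRCm38.p6. It was found in 4 of 38 windows of the 25 matched list members (10.5%) and in 0.475% of all 32817 windows. Of the 4 genes that hold it, Sgk1 and Txnip had the smallest p on chow. Capitals mark the motif.
Sgk1, chr10:21993640-21993939, plus strand: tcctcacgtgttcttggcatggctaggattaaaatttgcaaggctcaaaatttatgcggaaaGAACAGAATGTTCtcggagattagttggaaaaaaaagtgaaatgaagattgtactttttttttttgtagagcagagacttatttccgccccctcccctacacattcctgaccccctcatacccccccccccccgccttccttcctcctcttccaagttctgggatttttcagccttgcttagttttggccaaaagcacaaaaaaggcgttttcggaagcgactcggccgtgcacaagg
Txnip, chr3:96557707-96558006, plus strand: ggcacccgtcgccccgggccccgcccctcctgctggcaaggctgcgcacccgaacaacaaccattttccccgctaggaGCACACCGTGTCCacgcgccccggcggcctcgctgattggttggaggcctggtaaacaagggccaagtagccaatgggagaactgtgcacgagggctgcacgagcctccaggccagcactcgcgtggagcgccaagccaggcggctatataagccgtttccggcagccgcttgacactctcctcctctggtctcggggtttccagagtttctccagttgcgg
Sgk1, the serum- and glucocorticoid-regulated kinase, read 8.25, 8.36 and 8.85 in WT and 7.84, 7.50 and 8.04 in KO, a difference of -0.69 ± 0.21. Txnip, the thioredoxin-interacting protein, read 12.85, 12.72 and 12.96 in WT and 12.56, 12.67 and 12.74 in KO, a difference of -0.19 ± 0.08; its groups overlapped, and it rose by 0.41 on HFD (adjusted p = 0.0098). A match describes the letters of the window and is not a measured binding site. The list was drawn up from targets of such factors, so its share of matches does not bear on the chow difference.

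The list of immediate early and heat shock genes was lower by a similar median with more spread. Such genes respond to growth factors and handling of tissue. Of 33 members, 27 had a difference below 0, 8 of them with an unadjusted p under 0.05, and the median was -0.19. They included Dusp1 (-0.72), a MAP kinase phosphatase, Zfp36 (-0.48), which destabilises cytokine mRNAs, Myc (-0.60), and Ccn2 (-0.80), the connective tissue growth factor. The heat shock members Hspa1a (0.04), Hsp90aa1 (0.01), Dnajb1 (-0.01) and Hsph1 (-0.03) lay near 0. Hspb1 was at -0.34, without an unadjusted p under 0.05. Per array the list median was -0.02, 0.13 and -0.07 in WT and -0.20, -0.28 and -0.09 in KO. KO replicate 3 therefore lay next to WT replicate 3, and with single arrays left out the list median ran from -0.27 to -0.08.

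Genes of the respiratory chain and ATP synthase lay higher in KO. All 59 measured nuclear-encoded subunits of the respiratory chain and ATP synthase had a difference above 0, where 53.6% of all genes did; the median was 0.17 and the largest 0.34. An unadjusted p under 0.05 was reached by 18 on the higher side and 0 on the lower side. For 30 members the KO arrays all lay above the WT arrays, as they did for 5.79% of all genes. Per array the median was 0.05, 0.04 and -0.08 in WT and 0.19, 0.23 and 0.09 in KO. The size was small throughout: Ndufs8, of complex I, had a difference of 0.24, Uqcrh, of complex III, 0.32, Cox4i1, of complex IV, 0.23, and Atp5g1, of ATP synthase, 0.26. On HFD the median was 0.21, and 16 members rose and 0 fell, where 6.65% of all genes rose and 6.85% fell.

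Other mitochondrial lists had smaller medians above 0, and not all of them held with single arrays left out. Of 75 proteins of the mitochondrial ribosome, 72 had a difference above 0, 12 with an unadjusted p under 0.05, and the median was 0.12; Mrpl12 had a difference of 0.25, and Mrps30 had 0.25 and rose by 0.33 on HFD (adjusted p = 0.015). All 18 enzymes of the TCA cycle were above 0, with a median of 0.09 and none at an unadjusted p under 0.05. Mitochondrial fatty acid oxidation had 13 of 19 above 0, none at an unadjusted p under 0.05. Its median was 0.04 and ran from -0.02 to 0.07 with single chow arrays left out. Outside mitochondria, the cytosolic ribosome had 38 of 55 above 0 and a median of 0.03. The proteasome had 27 of 31 above 0 and a median of 0.06. Medians above 0 were thus not confined to mitochondrial lists.

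Promoters of 2 respiratory chain genes are shown because NRF1, a factor that binds many promoters of nuclear-encoded mitochondrial genes, has a well-known motif. The motif, GCGCA and GCGC with any 1 base between them, was searched on both strands in the same windows. It was found in 12 of 53 windows of 49 matched respiratory chain genes (22.6%), in 12 of 72 windows of 66 matched mitochondrial ribosome genes (16.7%) and in 4.59% of all windows. Ndufa5 and Cox6a1 had the smallest p on chow among the respiratory chain genes that hold it. In the windows shown, no match overlapped a match of the other motif. Capitals mark the motif.
Ndufa5, chr6:24527477-24527776, minus strand: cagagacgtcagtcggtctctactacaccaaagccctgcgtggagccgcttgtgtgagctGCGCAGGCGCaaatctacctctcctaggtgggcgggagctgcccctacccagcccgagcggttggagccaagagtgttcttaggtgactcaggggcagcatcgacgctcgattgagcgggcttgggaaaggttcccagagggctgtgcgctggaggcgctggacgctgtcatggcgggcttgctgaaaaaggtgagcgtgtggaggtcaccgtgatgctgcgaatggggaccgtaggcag
Cox6a1, chr5:115348909-115349208, minus strand: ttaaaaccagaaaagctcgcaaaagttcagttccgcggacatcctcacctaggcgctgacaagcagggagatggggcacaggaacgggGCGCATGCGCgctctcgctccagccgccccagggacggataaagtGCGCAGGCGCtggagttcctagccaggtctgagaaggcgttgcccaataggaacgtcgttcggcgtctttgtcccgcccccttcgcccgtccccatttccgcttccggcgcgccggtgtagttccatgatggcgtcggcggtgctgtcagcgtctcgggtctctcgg
Ndufa5, of complex I, had a difference of 0.31 ± 0.09 and rose by 0.50 on HFD (adjusted p = 0.007). Cox6a1, of complex IV, whose window holds 2 matches, read 10.25, 10.40 and 10.20 in WT and 10.64, 10.74 and 10.41 in KO, a difference of 0.32 ± 0.10. As before, a match is a description of sequence. The share of all windows stands beside it, but those windows were not matched to these genes for base composition.

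Fatty acid synthesis, which turns citrate into long-chain fatty acids, lay higher in KO in all 19 measured members, with a median of 0.24. Only 3 had an unadjusted p under 0.05: Elovl6, Acly (0.69), the ATP citrate lyase, and Slc25a1 (0.44), which carries citrate out of mitochondria. Fasn, the fatty acid synthase, read 13.02, 13.08 and 12.77 in WT and 13.30, 13.33 and 12.98 in KO, a difference of 0.24 with overlapping groups. Acaca, the acetyl-CoA carboxylase that makes malonyl-CoA, had a difference of 0.49 and rose by 0.93 on HFD (adjusted p = 0.021). Elovl6, Acly and Slc25a1 had HFD differences of -0.08, 0.22 and -0.17. On HFD the list had a median of 0.18, with 13 members above 0 and 6 below. There 6 members rose and 1 fell, where 6.65% of all genes rose and 6.85% fell. Per array the list median was 0.02, 0.13 and -0.19 in WT and 0.37, 0.22 and 0.16 in KO. Scd1, Thrsp and Mid1ip1 were near 0, at 0.03, 0.04 and 0.00.

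Neighbouring routes of carbon metabolism had smaller medians. In the pentose phosphate pathway 6 of 9 members were above 0, with a median of 0.09, and besides Tkt, Pgls (0.34), the 6-phosphogluconolactonase, had an unadjusted p under 0.05. In glycolysis, 12 of 18 were above 0, with a median of 0.09; Pfkl (0.20) and Pdha1 (0.27) stood on the higher side and Pdk4 on the lower. Cholesterol synthesis had 13 of 19 above 0 and a median of 0.11. Among genes of insulin signalling, 11 of 21 were above 0 and the median was 0.00, with Irs1, which docks to the insulin receptor, at 0.34. Pdpk1, the kinase that activates AKT, had a difference of -0.01, and Pdk1, a pyruvate dehydrogenase kinase that the list also holds, 0.39.

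Adipocyte genes lay on both sides of 0. Of 22 adipocyte genes, 10 had a difference above 0 and 12 below, and the median was -0.02; Pparg, the master regulator of the lineage, had a difference of 0.01, Cebpa 0.10 and Fabp4 -0.04. Lep, the hormone leptin, read 12.01, 12.09 and 12.26 in WT and 11.51, 11.84 and 11.86 in KO, a difference of -0.38 ± 0.12, and it fell by 0.48 on HFD (adjusted p = 0.029). The lists of lipolysis and of triglyceride synthesis and droplet proteins had medians of -0.02 and 0.02. Hcar2, the receptor for hydroxybutyrate that restrains lipolysis, stood out among them at 0.45.

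**Figure D4:**
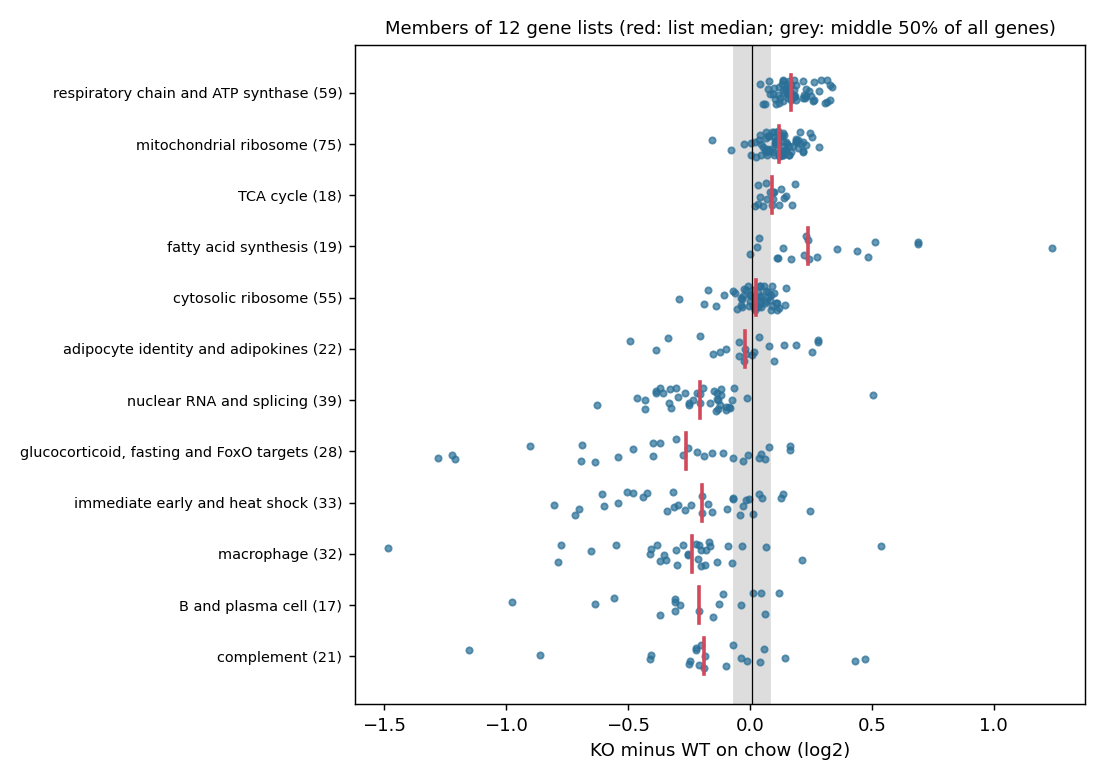
Each point is a member of 1 of 12 gene lists, placed by its KO minus WT difference (log2) on chow. The respiratory chain and fatty acid synthesis lie above 0 in every member, and nuclear RNA and splicing below 0 in all members but Gas5.

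**Figure D5:**
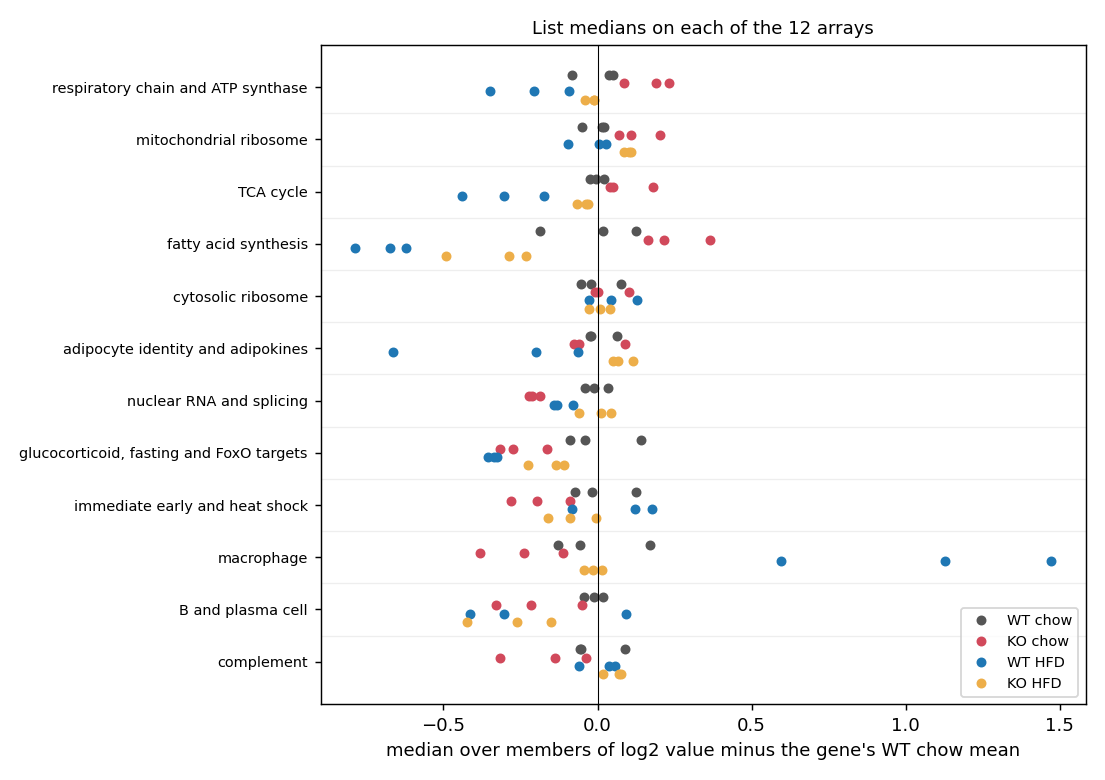
For 12 gene lists, the median level of the members relative to their mean in WT on chow (log2) is drawn for each of the 12 arrays. On chow, the nuclear RNA and splicing list lies at -0.19 or lower on the KO arrays and at -0.04 or higher on the WT arrays; on HFD, the KO arrays lie above the WT arrays.

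Most immune lists lay lower in KO on chow, with a macrophage median of -0.24 against -0.98 on HFD; the difference between diets was not tested for lists. Of 32 macrophage markers, 29 had a difference below 0, and Mmp12 and Ccr2, the receptor for CCL2, had an unadjusted p under 0.05. Per array the median was 0.17, -0.13 and -0.06 in WT and -0.11, -0.38 and -0.24 in KO, so WT replicate 2 and KO replicate 1 overlapped. The defining markers Adgre1 and Cd68 both had a difference of -0.25 on chow, and on HFD Adgre1 fell by 1.62 (adjusted p = 0.011) and Cd68 fell by 1.89 (adjusted p = 0.0060). Ccr2 had a difference of -0.65 and fell by 0.97 on HFD (adjusted p = 0.014). In all, 22 macrophage markers fell on HFD and 0 rose, where 6.85% of all genes fell and 6.65% rose.

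Genes of B and plasma cells had 13 of 17 members below 0, 5 of them with an unadjusted p under 0.05, and a median of -0.21. Among them were Ighm (-0.37), the heavy chain of IgM, Cd79a (-0.63) and Cd79b (-0.30), the signalling chains of the B cell receptor, and Jchain (-0.97), which joins IgM and IgA polymers. Most members are dim; among those above the median level of all genes the list median was 0.05, so its direction turned. T and NK cell markers had a median of -0.06, with 15 of 21 below 0. Mast cell and granulocyte markers went the other way, with 14 of 20 above 0 and a median of 0.07; Prg2, an eosinophil granule protein, was their only member with an unadjusted p under 0.05, at -0.22.

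Complement had 16 of 21 members below 0, 5 of them with an unadjusted p under 0.05, and a median of -0.19. The terminal components C6 and C7 (-0.86) and C4a (-0.41) and C4b, near-identical copies whose probe sets cannot be taken as separate, stood on the lower side, with Cfp (-0.25), properdin, which fell by 0.43 on HFD (adjusted p = 0.015). C8g, the gamma chain of C8, stood on the higher side. Without single arrays the complement median ran from -0.21 to -0.07. Cytokines and chemokines had 21 of 27 below 0 and a median of -0.10, between -0.15 and -0.04 without single arrays. Ccl8 (-0.79) fell by 1.62 on HFD (adjusted p = 0.0056), while Ccl11 (0.44), eotaxin, stood on the higher side. Interferon response genes had a median of -0.03.

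The remaining lists gave small values. The extracellular matrix list had a median of -0.06, with Eln, elastin, at -0.58; genes of the unfolded protein response had 20 of 24 below 0 and a median of -0.06, with Xbp1 on the other side at 0.28. Medians lay at 0.02 for TGF-beta and BMP signalling, -0.03 for the cell cycle and 0.06 for branched chain amino acid catabolism. Of the 21 members of the last list, 18 rose on HFD, where 6.65% of all genes rose. Markers of endothelial cells (-0.05), smooth muscle (-0.04), skeletal muscle (-0.01), male reproductive tract (-0.02) and mammary or salivary epithelium (0.02) had medians within 0.05 of 0. Stromal progenitor markers had a median of 0.10 and mesothelial markers of -0.12, with the wide spread between arrays given above.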

How the data were processed

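RNA was amplified with a whole-transcript kit, labelled with biotin and hybridised to 1-colour Affymetrix arrays, 1 per sample, per the labels' protocols. The authors deposited 1 table of log2 intensities with 34760 rows and 12 columns. The range of 2.09 to 14.2 points to base 2, which no source states. Per the submitters' processing notes the tool affy was used, with no version. The methods of background correction, probe summarization and normalization were not given in the sources used here. Array medians lay between 5.78 and 5.92; a scaling between arrays hides any change shared by all genes. The table holds no detection calls, so a dim gene could not be set against background, and the number of arrays limits the precision.

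Rows were named through the platform annotation: 21640 rows have 1 symbol, 1321 have several and 11799 are unnamed here; 21553 of the first matched RefSeq by Entrez identifier. The deposited log2 values were used unchanged and without a filter. A mean for each of 4 groups was fitted to 12 arrays in limma 3.58.1 (R 4.3.3) with eBayes, leaving 8 residual degrees of freedom. Tests were two-sided, with Benjamini-Hochberg adjustment over 19937 genes and a threshold of 0.05. The fit was tested on simulated data. The labels give no batches. Replicate numbers are shared between groups, and the main fit did not pair samples by them. Deviations of same-numbered chow arrays correlated at -0.192, -0.408 and -0.006. These values cannot settle whether same-numbered samples were handled together.

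Genes were named by a rule: Ahnak, the 15 smallest p in each direction, the 10 largest changes in each direction among genes with an unadjusted p under 0.05 and arrays that do not overlap, and up to 5 members per list by p. Genes outside it (Gas5, H2-Ea, Sfrp4, Cish, Cxcl13, Depp1, Pdpk1, Fkbp5, Fasn, Sgk1, Tsc22d3, Srsf2, Txnip, Cox6a1, Arrdc4, Scd1, Thrsp, Mid1ip1, C7, Adgre1 and Cd68) were chosen after their values were seen. So were Hspa1a, Hsp90aa1, Dnajb1, Hsph1, Hspb1, Golgb1 and Akap9. The members and lists were chosen with earlier results of these data known. The 42 lists hold 1096 genes, of which 988 were measured. Promoter sequences are those of RefSeq for GRCm38.p6, and only names and gene order were taken from its gene table. Alternatives were other normalizations, filters, row choices, variance settings, array weights, arrays left out, a replicate block and single-diet fits.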

Additional observations from a re-analysis of the deposited data

Results flagged for a closer look

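For 3 gene lists, the chow KO arrays lay all on 1 side of the chow WT arrays and the HFD KO arrays all on the opposite side of the HFD WT arrays, in the median of their members. The difference between diets was not tested for a list. Nuclear RNA and splicing genes had a median KO minus WT difference of -0.201 on chow and 0.141 on HFD; 14 of the 39 members had arrays that did not overlap on either diet, in opposite directions, as did 256 of all 19937 genes (1.28%). Glucocorticoid, fasting and FoxO targets had -0.262 on chow and 0.108 on HFD, with 2 such members of 28. Glycolysis had 0.0867 on chow and -0.0576 on HFD, with 1 such member of 18. Its HFD groups were barely apart. The list median was -0.093 on KO HFD replicate 2 and -0.092 on WT HFD replicate 1, relative to WT on chow. On HFD, 4 of 39 nuclear RNA and splicing genes rose and 0 fell, 6 of 28 glucocorticoid, fasting and FoxO targets rose and 1 fell, and 3 of 18 glycolysis genes rose and 3 fell; of all genes, 6.65% rose and 6.85% fell.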

How the results depend on the processing

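No setting called a gene on chow at an adjusted p under 0.05 in limma, and the lowest adjusted p over the settings was 0.0863. The count at an unadjusted p under 0.05 was 1116, ran from 862 to 1299 with single chow arrays left out, and was 723 of 9968 genes above the median level, where fewer genes are tested. Quantile normalization gave 730 higher and 495 lower genes, and setting array medians equal gave 622 and 496; array weights, whose estimate did not converge fully, gave 688 and 843. The replicate block gave 1023 genes at an unadjusted p under 0.05 and 0 called, with Ahnak at -0.69 (adjusted p = 0.519) and 10 of the 30 named genes called on HFD.

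Among genes above the median level the list medians were 0.284 for thermogenic genes, -0.42 for T and NK cell, 0.0457 for B and plasma cell, 0.235 for mast cell and granulocyte, 0.224 for mammary and salivary epithelium and -0.526 for erythroid markers, each over fewer members; no marker of the male tract was left. Array weights gave -0.139 for cytokines, 0.0158 for mast cell and granulocyte and -0.0543 for male tract markers, and the cause was not tested.

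Without single chow arrays the medians ran from -0.0883 to -0.0636 for AHNAK partners, -0.0914 to 0.0242 for adipocyte genes, 0.0251 to 0.113 for glycolysis, -0.0203 to 0.0477 for triglyceride synthesis, -0.00172 to 0.0774 for lipolysis (-0.0164 with all arrays), 0.00226 to 0.0494 for thermogenic genes, -0.225 to -0.169 for nuclear RNA and splicing, -0.272 to -0.0806 for immediate early genes, -0.0499 to 0.0186 for oxidative stress, -0.148 to -0.04 for cytokines, -0.21 to -0.0652 for complement, 0.0404 to 0.121 for mast cell and granulocyte, -0.0272 to 0.0511 for neural and -0.165 to -0.0151 for erythroid markers. The 11 called genes among the 30 on HFD became 0 with only the 6 HFD arrays, which leaves fewer degrees of freedom, and 4 to 10 without single HFD arrays, a choice made after seeing the data. The other 603 values for counts and lists and 400 for single genes kept their direction or size within the spread.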
